A study of Mus musculus with 9 samples.

Results

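The genes described here are 40 components of the cardiac sarcomere and of its anchoring and upkeep, read in RNA-seq counts of mouse hearts after sham surgery, after ischemia and reperfusion, and after the same injury with Guanxinning injection (GXNI). They were taken from the count table by symbol, and all 40 were found among 54532 annotated genes. By role they were 5 genes of the thick filament and titin, 9 of the thin filament, 10 of the Z-disc, 2 of the M-band, 7 of the costamere, intermediate filaments and intercalated disc, 4 of protein turnover and 3 of sarcomere assembly. The mice were wild-type male C57BL/6J animals aged 8 to 10 weeks, with 3 libraries in each group, from independent animals by the study's account. In the myocardial ischemia/reperfusion injury (MIRI) group, the left anterior descending coronary artery was tied for 30 min and then released for 24 h, and the mice received saline. The GXNI group had the same operation and received GXNI, a herbal preparation of Danshen and Chuanxiong, at 9 mL/kg by tail vein within 10 min of ischemia. Sham mice had the chest opened and the thread placed but left untied. By the study's methods, every group, sham included, received drug or saline by tail vein. Although the sample labels name cardiomyocytes as the cell type, total RNA came from heart tissue, and endothelial Pecam1 (163 to 190 CPM, counts scaled to library depth, in sham hearts) and fibroblast Col1a1 (111 to 158 CPM) were both read.

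The sarcomere is the contractile unit of striated muscle. Thick filaments of myosin slide along thin filaments of actin, which are anchored in the Z-disc, while the M-band holds the thick filaments in register and titin spans from one to the other. Costameres and the intercalated disc tie the outermost sarcomeres to the cell membrane and to the next cell, and ubiquitin ligases such as MuRF1 and atrogin-1 remove worn sarcomere proteins. Leakage of cardiac troponin into blood is a clinical sign of cardiomyocyte death after infarction.

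Each library held 17119454 to 22811295 counts, of which the 40 genes took 4.44% to 5.19%, and the lowest count of any of them was 123 (Synm), so all 40 passed the filter on low counts. The libraries did not all stand with their labels. Over the 15167 other genes, the library labelled MIRI 2 was most like GXNI 1 (Spearman rho 0.982), GXNI 1 was most like sham 1 (0.984), and MIRI 1 and MIRI 3 were both most like GXNI 3 (0.986 and 0.987). Results that rest on these libraries are therefore given with and without them. The 12 neutrophil markers summed to 155 to 207 CPM in sham hearts and 1124, 234 and 843 CPM in MIRI 1 to 3. In GXNI 1 to 3 they summed to 629, 663 and 832 CPM. Of these sums, Lcn2 alone gave 125 to 150 CPM in sham hearts and 391, 206 and 172 CPM in MIRI 1 to 3. In GXNI 1 to 3 Lcn2 gave 578, 438 and 131 CPM. GXNI 1 also stood apart in the 9 epicardial markers, which summed to 94.8 CPM there and to 9.35 to 29.6 CPM in the other libraries, and in the 12 fibroblast markers, at 3441 CPM against 1371 to 2614 CPM. S100a8 stood at 202, 8.55 and 141 CPM in MIRI 1 to 3 and at 13.4, 53.8 and 130 CPM in GXNI 1 to 3, against 9.21 to 12.1 CPM in sham hearts. The summed level of 16 cardiomyocyte genes outside the sarcomere moved too, from 34800 to 36420 CPM in sham hearts to 22000, 33870 and 18620 CPM in MIRI 1 to 3 and to 31780, 25480 and 19880 CPM in GXNI 1 to 3. Of these, Atp2a2 alone was at 13510 to 15210 CPM in sham hearts and 6960, 12190 and 5100 CPM in MIRI 1 to 3. In GXNI 1 to 3 it was at 11700, 8508 and 5483 CPM. In each comparison with sham, 14 of the 16 had a negative log2 fold change and 2 a positive value. None of these 16 was called in any of the 4 comparisons by edgeR's quasi-likelihood test. Against sham, 2 of them had an unadjusted p under 0.05 (edgeR) in MIRI, 6 in GXNI and 3 in all injured hearts. The shares of all genes were 28.3%, 19.8% and 26.4% in that order. DESeq2 called 1 of the 16 in MIRI hearts against sham (5.34% of all genes higher and 2.72% lower) and 1 in GXNI hearts (3.56% and 1.46%). In such bulk tissue, fewer cardiomyocytes and less RNA of single genes per cardiomyocyte cannot be told apart. Of 12 skeletal muscle markers, Myh1, Myh2, Myh4 and Myh8 had at most 3 counts in every library. Others on that list were read in all libraries, among them Mybpc2 at 14.4 to 39.5 CPM and Casq1 at 2.05 to 10.3 CPM. The part of other cell types in the results was not tested.

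Levels between genes were compared per kilobase of exon. In sham hearts Myl2, the ventricular regulatory light chain, was the most abundant of the 40 at 2835 ± 122.5 CPM per kb (SD, n = 3). Tcap, which caps titin at the Z-disc, followed at 2365 ± 116.6 and Myl3, the ventricular essential light chain, at 2296 ± 122.5 CPM per kb, and the mean ± SD ranges of these 2 overlapped. Below them came the troponin genes Tnni3, the inhibitory subunit (1658 ± 49.95), and Tnnc1, the calcium sensor (1280 ± 103), tropomyosin Tpm1 (1035 ± 44.23), Tnnt2 (811.9 ± 51.45), the LIM-domain gene Fhl2 (733 ± 111.2), desmin Des (551.4 ± 18.87) and myosin-binding protein C Mybpc3 (537.6 ± 18.68), all in CPM per kb. In that order the ranges of mean ± SD overlapped between Tnnt2 and Fhl2 and between Des and Mybpc3. The lowest were Pdlim3, an actinin-associated LIM gene, at 2.16 and the intermediate filament gene Synm at 1.31 CPM per kb. Titin itself, Ttn, stood only at 29.2 CPM per kb, since its 3415 ± 304.4 CPM are spread over 116825 bases of exon.

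**Figure D1:**
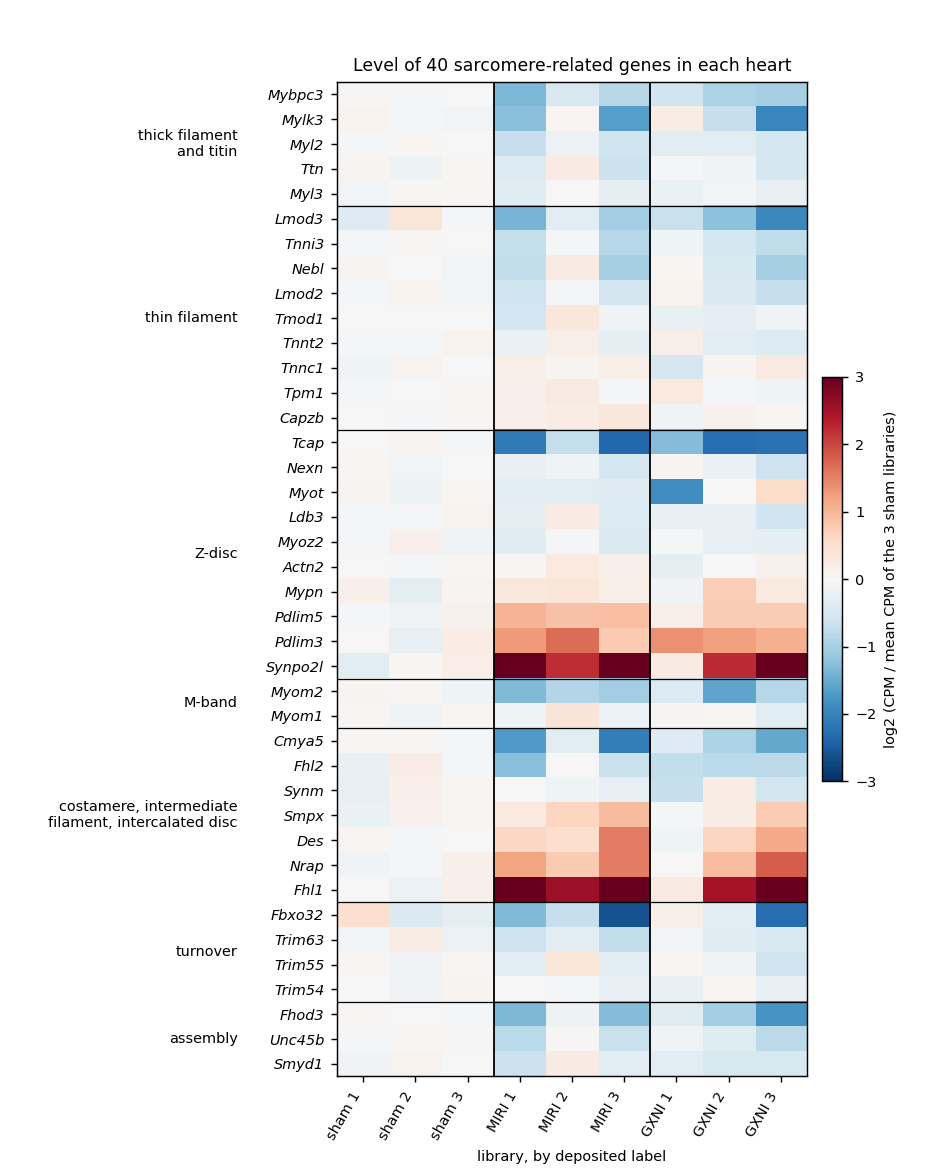
Each cell gives 1 gene (rows, grouped by role) in 1 library (columns) as the log2 of its normalized CPM over the mean of the 3 sham libraries, red for higher and blue for lower. The red block of Fhl1 and Synpo2l is seen in every injured heart but GXNI 1, the blue of Tcap in all 6, and MIRI 2 is pale for most thick and thin filament genes.

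Compared with the sham group, hearts that had ischemia and reperfusion, with or without GXNI, had lower mRNA of the titin cap Tcap (3.25-fold), the M-band protein Myom2 (1.95-fold), the thick filament gene Mybpc3 (1.79-fold) and the thin filament nucleator Lmod3 (2.03-fold). Fhl1 (6.71-fold), Synpo2l (6.04-fold), Pdlim3 (2.40-fold) and Pdlim5 (1.70-fold), which lie at the Z-disc and costamere, were higher. This comparison sets all hearts with ischemia and reperfusion against sham, the fitted value being the mean of the MIRI and GXNI coefficients. Calls used the study's own limits, a fold change of 1.5 or more together with a p no higher than 0.01 before adjustment. In edgeR's quasi-likelihood test 4 of the 40 were called higher, where 4.09% of the 15207 genes tested were, and 4 lower, where 2.5% were. By edgeR with all libraries no member, and none of all genes, passed a Benjamini-Hochberg adjusted p of 0.05 in that comparison. By DESeq2 10 members and 1675 genes in all passed it, and 5 of the 10 were higher and 4 lower by a fold of 1.5 or more. Leaving out MIRI 2 let 15 members pass it by edgeR (2221 of all genes), and leaving out GXNI 1 let 9 pass (1087 of all genes). Without a test, 4 members had all 6 injured libraries above all 3 sham libraries (Fhl1, Synpo2l, Pdlim3 and Pdlim5), as had 8.40% of all genes, and 6 had all of them below (Tcap, Mybpc3, Myom2, Myl2, Cmya5 and Fhod3), as had 8.46%. The median log2 fold change of the 40 was -0.22, beside 0.00 over all genes tested. Median levels relative to the sham mean were -0.35, 0.06 and -0.36 on the log2 scale in MIRI 1 to 3 and -0.11, -0.20 and -0.47 in GXNI 1 to 3. With MIRI 2 and GXNI 3 left out, 5 members were higher (10.2% of all genes) and 8 lower (7.02% of all genes), Nrap being added to the first and Cmya5, Fhl2, Fhod3 and the myosin light chain kinase Mylk3 to the second.

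**Figure D2:**
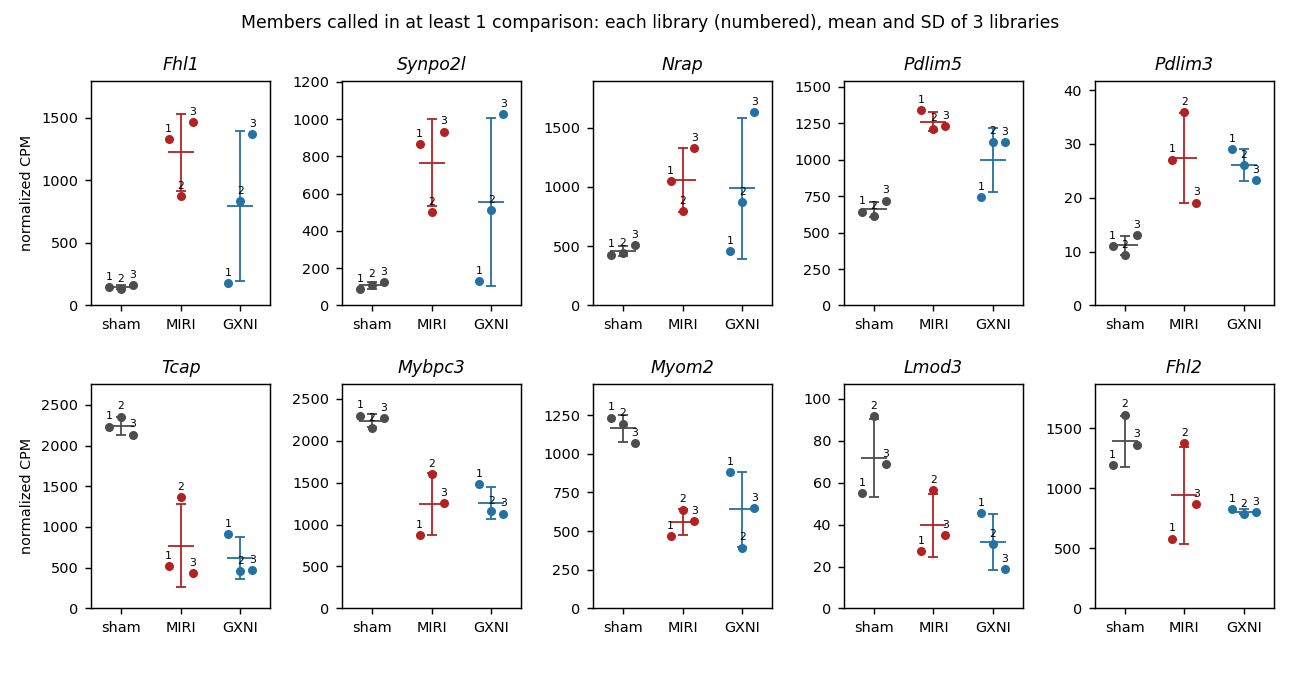
The 10 members called in at least 1 of the 4 comparisons with all libraries, as normalized CPM on linear axes from 0, with each library as a numbered point and a bar for the mean and SD of 3 libraries. The upper row rose and the lower row fell, and the library labelled GXNI 1 lies near the sham points for Fhl1, Synpo2l, Nrap and Pdlim5 but not for Pdlim3 or Tcap.

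Of the thick filament and titin genes, 1 of 5 was called lower in the injured hearts against sham, beside 2.5% of all genes, and the median log2 fold change was -0.44. Mybpc3, whose protein binds myosin and tunes cross-bridge cycling, was at 2297, 2150 and 2267 CPM in sham hearts, 873, 1605 and 1255 CPM in the MIRI group and 1480, 1162 and 1131 CPM in the GXNI group. Its log2 fold change was -0.84 (SE 0.19, unadjusted p = 0.0019, edgeR), and every injured heart was below every sham heart. Myl2 was at 5279, 5755 and 5552 CPM in sham, 3421, 4884 and 3644 CPM in MIRI and 4369, 4392 and 3831 CPM in GXNI hearts. Here too the groups did not overlap, but the log2 difference of -0.44 (SE 0.16) was under the fold threshold. Mylk3, which phosphorylates the regulatory light chain, had the widest range of the 5 relative to its level, with 624 to 713 CPM in sham hearts, 275, 681 and 209 CPM in MIRI 1 to 3 and 772, 406 and 169 CPM in GXNI 1 to 3. MIRI 2 was within the sham range and GXNI 1 above it, so that the groups overlapped. Ttn ranged from 2180 to 4075 CPM and Myl3 from 3658 to 4710 CPM over the injured hearts, and both overlapped with sham.

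Of the 9 thin filament genes 1 was called lower, beside the same 2.5% of all genes, with a median log2 fold change of -0.14 in injured hearts against sham. The gene called was Lmod3, a leiomodin that starts actin filaments. It was at 54.9, 92.0 and 69.0 CPM in sham, 27.5, 56.5 and 34.8 CPM in MIRI and 45.4, 30.8 and 18.9 CPM in GXNI hearts, a log2 fold change of -1.02 (SE 0.31, unadjusted p = 0.0090, edgeR), with MIRI 2 just inside the sham range. Its call was lost on leaving out sham 2, sham 3, MIRI 1, MIRI 3, GXNI 2 or GXNI 3. The inhibitory troponin Tnni3, a plasma marker of infarction, was at 3309, 3512 and 3439 CPM in sham, 2092, 3324 and 1891 CPM in MIRI and 3115, 2368 and 2017 CPM in GXNI hearts. All 3 GXNI hearts and 2 of the MIRI hearts were below sham, MIRI 2 fell inside the range, and the gene was not called (log2 -0.47, SE 0.21). Troponin T (Tnnt2), troponin C (Tnnc1), tropomyosin (Tpm1), the pointed-end cap Tmod1, the barbed-end cap subunit Capzb, the second leiomodin Lmod2 and nebulette (Nebl) also were not called, with log2 fold changes from -0.40 (Nebl) to 0.14 (Capzb). Tmod1 shares exon sequence with a gene on the other strand, and whether strand was used in counting is not given in the sources used here.

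The Z-disc held both the largest fall and, after Fhl1, the next largest rise. Tcap (chr11:98383811-98384953, mm10, forward strand) was at 2233, 2356 and 2136 CPM in sham, 516, 1363 and 438 CPM in MIRI and 915, 460 and 474 CPM in GXNI hearts. No injured heart reached the sham range, although MIRI 2 and GXNI 1 were the highest of their groups. The log2 fold change was -1.70 (SE 0.37, unadjusted p = 0.0013, edgeR). Synpo2l, which encodes an actin-bundling protein of the Z-disc (chr14:20658946-20668354, reverse strand), was at 87.1, 112 and 125 CPM in sham, 865, 501 and 933 CPM in MIRI and 129, 510 and 1028 CPM in GXNI hearts. GXNI 1 was just above the highest sham heart and the other 5 were at least 501 CPM (log2 2.59, SE 0.59, unadjusted p = 0.0018, edgeR), a call that was lost on leaving out sham 1.

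Pdlim3 and Pdlim5, LIM-domain genes of the Z-disc, rose, while cypher (Ldb3) of the same family was not called (log2 -0.23). Pdlim3 went from 11.0, 9.41 and 13.0 CPM in sham to 27.1, 35.9 and 19.1 CPM in MIRI and 29.0, 26.0 and 23.2 CPM in GXNI hearts, with no overlap (log2 1.26, SE 0.22, unadjusted p = 0.00027, edgeR). Here GXNI 1 was the highest of the GXNI hearts. Pdlim5 went from 644, 615 and 719 CPM to 1338, 1213 and 1233 CPM in MIRI and 742, 1125 and 1121 CPM in GXNI hearts, GXNI 1 lying close to sham (log2 0.77, SE 0.17, unadjusted p = 0.0013, edgeR). The core crosslinker of the Z-disc, alpha-actinin Actn2, differed by a log2 of 0.06 (SE 0.14), and cypher, the calcineurin-binding Myoz2, myopalladin (Mypn), nexilin (Nexn) and myotilin (Myot) lay between -0.25 and 0.32 and were not called. Myot varied most among these relative to its level, from 9.39 CPM in GXNI 1 to 49.8 CPM in GXNI 3.

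At the M-band, Myom2 was at 1234, 1194 and 1067 CPM in sham, 469, 639 and 564 CPM in MIRI and 881, 392 and 649 CPM in GXNI hearts. Every injured heart was lower (log2 -0.96, SE 0.23, unadjusted p = 0.0023, edgeR), though this call too was lost without sham 1. Its relative Myom1, which crosslinks myosin in the same band, had group means of 1188, 1229 and 1136 CPM and a log2 difference of -0.01 (SE 0.17).

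Among the 7 genes of the costamere, intermediate filament and intercalated disc, Fhl1, whose LIM-domain protein binds titin and the sarcomere's stretch-sensing complex (chrX:56731787-56793346, forward strand), changed most of all 40. It was at 148, 130 and 162 CPM in sham, 1327, 876 and 1462 CPM in MIRI and 178, 832 and 1369 CPM in GXNI hearts. GXNI 1 was barely above the sham hearts, while the other 5 were at least 832 CPM (log2 2.75, SE 0.57, unadjusted p = 0.0010, edgeR). Its paralog Fhl2 was at 1195, 1614 and 1363 CPM in sham, 582, 1379 and 871 CPM in MIRI and 829, 788 and 801 CPM in GXNI hearts (log2 -0.67, SE 0.24, unadjusted p = 0.021, edgeR, not called).

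Nrap, which links actin to the intercalated disc during myofibril assembly, was at 429, 444 and 508 CPM in sham, 1047, 793 and 1329 CPM in MIRI and 459, 873 and 1627 CPM in GXNI hearts. Desmin (Des), the muscle intermediate filament, was at 2139, 1997 and 2074 CPM, then 3181, 2937 and 5961 CPM, then 1884, 3240 and 4560 CPM in the same groups. For both genes GXNI 1 lay within or below the sham range and the other 5 injured hearts above it, and neither was called by edgeR in all injured hearts against sham (log2 1.15, SE 0.36, and 0.80, SE 0.32). Nrap was called in MIRI hearts against sham by edgeR and in all injured hearts by DESeq2, which also called Des in MIRI hearts. The stretch-responsive Smpx (log2 0.50, SE 0.21) was not called in all injured hearts by edgeR or DESeq2, but DESeq2 called it higher in MIRI hearts against sham. Cmya5, encoding myospryn, a desmin-binding anchor of the Z-disc, was at 619, 621 and 580 CPM in sham, 187, 479 and 143 CPM in MIRI and 464, 313 and 210 CPM in GXNI hearts without overlap with sham, but missed the p threshold (log2 -1.03, SE 0.37, unadjusted p = 0.022, edgeR). DESeq2 called Cmya5 lower in MIRI, in GXNI and in all injured hearts, each against sham. Part of its exons lies opposite another annotated gene. Synm was at 6.49 to 12.2 CPM in all hearts and was not called.

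Turnover and assembly genes gave no call in edgeR's quasi-likelihood test with all libraries, while DESeq2 called Fbxo32 lower in MIRI and Fhod3 lower in GXNI hearts, each against sham. Fbxo32, encoding atrogin-1, a ubiquitin ligase subunit, varied already in sham hearts at 321, 166 and 188 CPM and was at 89.6, 139 and 36.7 CPM in MIRI and 254, 177 and 46.3 CPM in GXNI hearts. All MIRI hearts were below sham, whereas GXNI 1 and GXNI 2 were inside its range (log2 -0.93 over both groups, SE 0.53). The MuRF genes Trim54, Trim55 and Trim63, ubiquitin ligases of the sarcomere, differed by log2 values of -0.11, -0.13 and -0.42. Trim54 was the most abundant of the 4 per kilobase (128.4 ± 8.044 CPM per kb in sham) and was at 187, 172 and 195 CPM in sham, 186, 178 and 157 CPM in MIRI and 158, 191 and 158 CPM in GXNI hearts. Of the assembly genes, the formin Fhod3 was lower in every injured heart, from 368, 353 and 340 CPM to 139, 319 and 143 CPM in MIRI and 277, 175 and 103 CPM in GXNI hearts, without passing the threshold (log2 -0.88, SE 0.34, unadjusted p = 0.030, edgeR). The myosin chaperone Unc45b (log2 -0.41) and the methyltransferase Smyd1 (log2 -0.31) were not called. Smyd1 was at 533, 619 and 575 CPM in sham, 367, 684 and 457 CPM in MIRI and 456, 416 and 409 CPM in GXNI hearts, MIRI 2 being the highest of all 9.

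**Figure D3:**
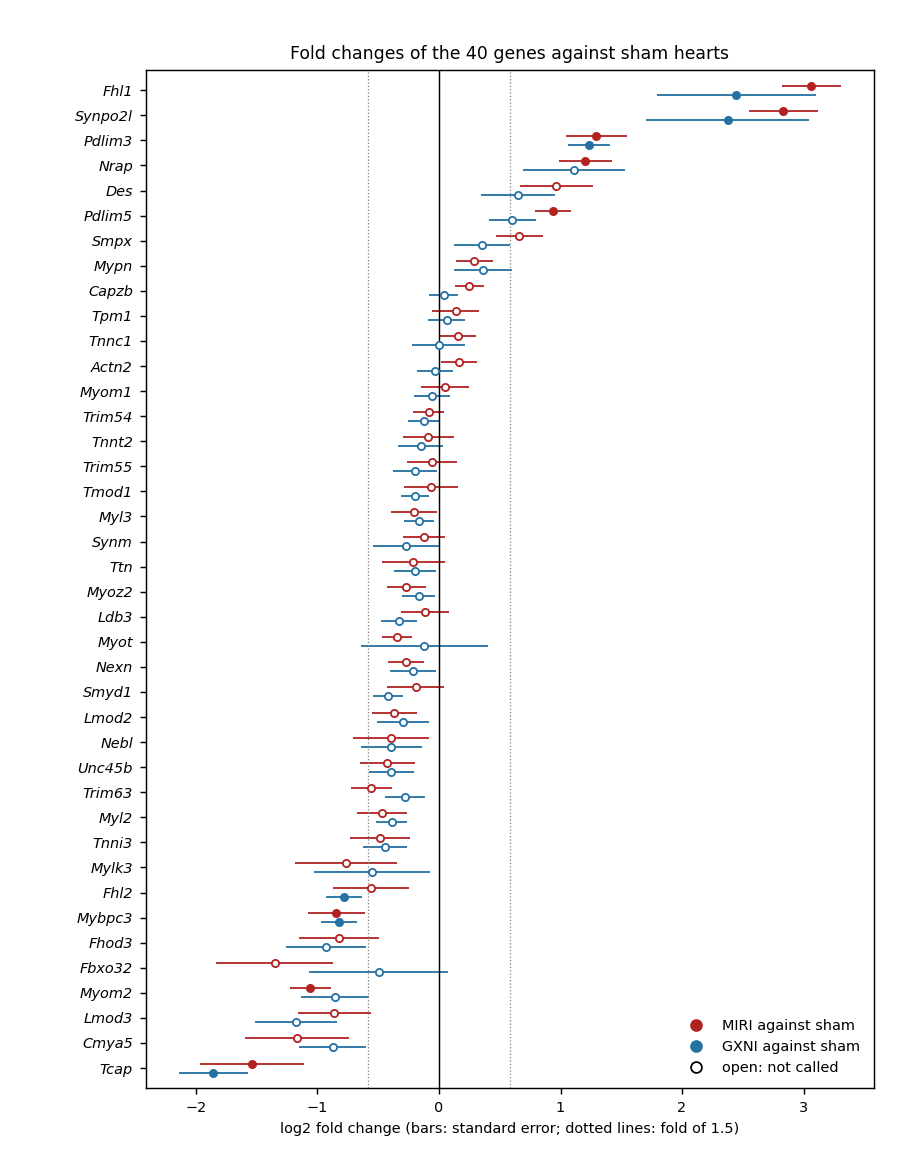
Log2 fold changes of the 40 members against sham, red for MIRI and blue for GXNI, with standard errors as bars, filled points for called genes and dotted lines at a fold of 1.5. Fhl1 and Synpo2l at the top and Tcap at the bottom stand apart from the many genes between the dotted lines.

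By group, MIRI hearts against sham gave 5 members higher (Fhl1, Synpo2l, Pdlim3, Nrap and Pdlim5), where 6.15% of the 14644 genes tested were called higher, and 3 lower (Tcap, Myom2 and Mybpc3), where 2.82% were. Fhl1 rose 8.36-fold and was the only member to pass the adjusted threshold (log2 3.06, SE 0.24, adjusted p = 0.036, edgeR's quasi-likelihood test with Benjamini-Hochberg adjustment), as did 2 of all genes tested. By DESeq2 13 members and 2065 genes in all passed it, 7 members being higher and 5 lower by a fold of 1.5 or more. Without MIRI 2, 6 members were called higher and 14 lower, beside 16.9% and 13.3% of all genes, and 30 passed the adjusted threshold (6554 of all genes) by edgeR. Without any other single library no member passed it, and Myom2 was then the only member called lower, Tcap and Mybpc3 missing the p threshold (1.15% to 1.53% of all genes were lower). The 11 added to the lower side included thick and thin filament genes (Myl2, Mylk3, Tnni3, Nebl and Lmod3), the ligases Fbxo32 and Trim63, and Cmya5, Fhl2, Fhod3 and Unc45b. Tcap then stood at a log2 of -2.23 (SE 0.12) in place of -1.54 (SE 0.43), and Cmya5 at -1.88 (SE 0.14) in place of -1.17 (SE 0.43). The rise of Fhl1 was as large without that library (log2 3.25, SE 0.13).

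GXNI hearts against sham gave 3 members higher (Fhl1, Synpo2l and Pdlim3, beside 2.67% of 14695 genes) and 3 lower (Tcap, Mybpc3 and Fhl2, beside 1.54%). Tcap was 3.62-fold lower (log2 -1.86, SE 0.29, adjusted p = 0.21, edgeR's quasi-likelihood test with Benjamini-Hochberg adjustment). By edgeR no member passed the adjusted threshold, and by DESeq2 7 did (834 of all genes), 3 higher and 4 lower. Fhl2 was called in these hearts and not in MIRI hearts, where MIRI 2 lay inside the sham range, and the difference between the 2 injured groups was itself not called. Without GXNI 1, 6 members were called higher and 9 lower, beside 10.7% and 7.08% of all genes, and 17 passed the adjusted threshold (2749 of all genes) by edgeR, Fhl1 standing at a log2 of 2.92 (SE 0.23) in place of 2.45 (SE 0.65). Without GXNI 3, Fhl1 (log2 1.79, SE 0.55) and Synpo2l (1.57, SE 0.51) were no longer called, leaving 1 member higher (2.11% of all genes) and 4 lower (1.46%). Leaving out GXNI 2 or any 1 of the sham libraries also ended these 2 calls, with Pdlim3 the only member then called higher (0.551% to 1.58% of all genes).

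The comparison of GXNI with MIRI hearts asks whether treatment changed the injured heart. No member was called in either direction by edgeR's quasi-likelihood test, none had an unadjusted p under 0.05, and DESeq2 called none, beside 0.0% of 14762 genes called higher and 0.0203% lower. The smallest unadjusted p was 0.18 (edgeR), for Pdlim5 (log2 -0.33, SE 0.23), all 3 GXNI values being below all 3 MIRI values. Standard errors ran from 0.16 to 0.69 on the log2 scale. At the upper end even differences above the fold threshold were not resolved, as for Fbxo32 (log2 0.86, SE 0.69) and Fhl1 (-0.62, SE 0.66). Synpo2l was under it (-0.46, SE 0.67). In Synpo2l and Fhl1, GXNI 1 was the library that lay apart from the other GXNI hearts.

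MIRI 2 was most like GXNI 1, and GXNI 3 most like MIRI 3, and both were left out together for that likeness. Such a choice widens the difference between the groups by itself, so calls made this way are no test of treatment. Genes with an unadjusted p under 0.05 by edgeR went from 0.318% to 19.1% of all genes. GXNI 1, most like sham 1, was kept. Also kept were GXNI 2, most like MIRI 1, and MIRI 1 and MIRI 3, both most like GXNI 3. With 2 hearts a group, 2 members were called higher in GXNI, Fbxo32 and Cmya5, where 1.52% of 14984 genes were, and none lower, where 3.47% were. Fbxo32 was at 254 and 177 CPM in GXNI 1 and 2 and at 89.6 and 36.7 CPM in MIRI 1 and 3 (log2 1.78, SE 0.45, unadjusted p = 0.0075, edgeR), and Cmya5 at 464 and 313 CPM against 187 and 143 CPM (log2 1.25, SE 0.27, unadjusted p = 0.0037, edgeR). In all 8 members then had an unadjusted p under 0.05 by edgeR, as had 19.1% of all genes, among them Synpo2l on the lower side (log2 -1.48, SE 0.60) and Nebl, Unc45b, Fhod3 and Trim63 on the higher side (log2 0.70, 0.52, 0.70 and 0.48). None of the 40 passed the adjusted threshold. The median log2 difference of the members was 0.22 without these libraries and -0.06 with them.

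**Figure D4:**
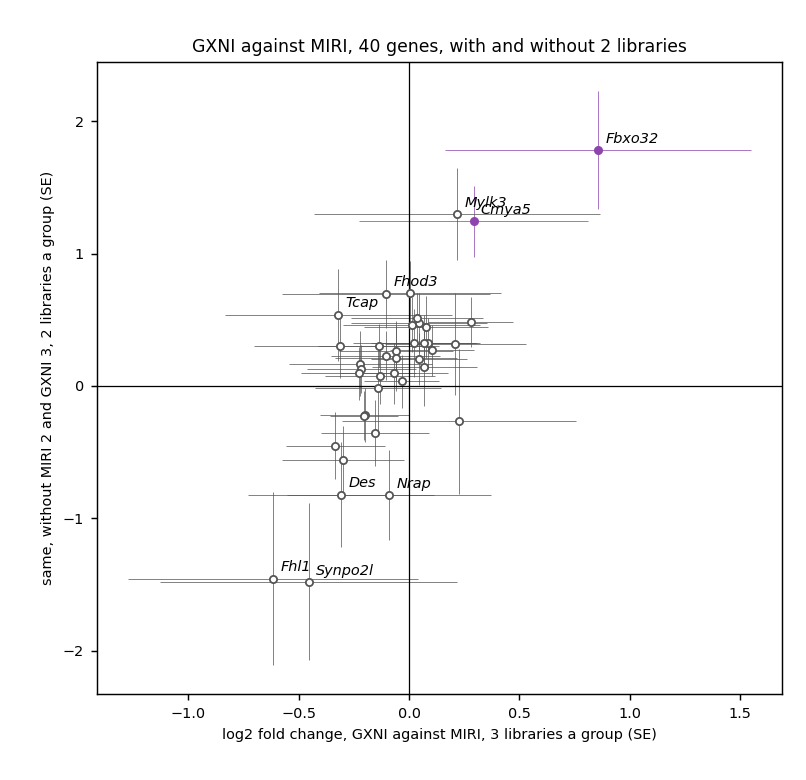
Log2 fold changes of the 40 members in GXNI against MIRI hearts with all 6 libraries (x axis) and without MIRI 2 and GXNI 3 (y axis), with standard errors as bars. No point is called on the x axis, and the 2 filled points, Fbxo32 and Cmya5, are called on the y axis only. The libraries left out were picked for their likeness to the other group, which by itself widens the difference on the y axis.

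For the wider sarcomere, 45 other genes of contraction, Z-disc and costamere function were read. In all injured hearts against sham 10 of 43 tested were called higher (4.09% of all genes) and 2 lower (2.5%), their median log2 fold change being 0.28. Without a test, 7 of the 43 had all injured hearts above all sham hearts (8.40% of all genes) and 5 had all below (8.46%). Of the 12 called genes, 7 had no overlap between injured and sham hearts, and Ankrd1, Ankrd2, Ankrd23, Xirp1 and Flnc did. The largest of these 7 called genes was Xirp2, an actin-binding repeat protein of the intercalated disc, with 237, 243 and 295 CPM in sham, 1823, 1024 and 3158 CPM in MIRI and 295, 1287 and 3190 CPM in GXNI hearts (log2 2.79, SE 0.71), so that GXNI 1 was level with the highest sham heart. Klhl41, a ubiquitin ligase adaptor of the sarcomere (log2 1.93, SE 0.51), the LIM gene Pdlim7 (1.47, SE 0.34), vinculin Vcl (0.89, SE 0.21) and plectin Plec (0.72, SE 0.21) were higher. Myh7b, a slow myosin heavy chain, was at 42.6, 50.1 and 55.5 CPM in sham, 7.12, 16.1 and 7.46 CPM in MIRI and 24.4, 11.9 and 10.6 CPM in GXNI hearts (log2 -1.97, SE 0.32). Ablim1, an actin-binding LIM protein, was also lower (log2 -0.93, SE 0.28). MIRI against sham called 17 higher and 2 lower of 43, beside 6.15% and 2.82% of all genes. GXNI against sham called 2 higher and 2 lower of 43 by edgeR, beside 2.67% and 1.54% of all genes, and the number higher depended on single libraries. DESeq2 called 18 higher and 2 lower for MIRI (5.34% and 2.72% of all genes). For GXNI against sham it called 12 higher and 5 lower (3.56% and 1.46%). GXNI against MIRI called none of 42 by edgeR's quasi-likelihood test or DESeq2, with none at an unadjusted p under 0.05 in edgeR.

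Promoter sequences were available for 32 of the 40 genes (43 windows, RefSeq, GRCm38.p6). They are shown for 3 members that rose without overlap and 1 that fell, each from 250 bases before to 50 after a RefSeq start, with matches to 4 muscle or core promoter motifs in capitals. The motifs were the CArG box read by serum response factor, the MEF2 site, the M-CAT element CATTCC and the TATA element TATAAA, on both strands. Not shown are another Fhl1 window, without a match, and another Synpo2l window, with a MEF2 site. Pdlim5, which also rose without overlap and is not shown, had a TATA element in 1 window and no match in the other. The windows of Fhl1 (chrX:56779433-56779732, forward strand, CArG box at -102 to -93 and a reversed TATA element at -156 to -151), Synpo2l (chr14:20668305-20668604, reverse strand, MEF2 site at -109 to -100), Pdlim3 (chr8:45885237-45885536, forward strand, M-CAT at -201 to -196 on the reverse strand and at -11 to -6) and Mybpc3 (chr2:91117894-91118193, forward strand, MEF2 site at -90 to -81) read as follows.
Fhl1: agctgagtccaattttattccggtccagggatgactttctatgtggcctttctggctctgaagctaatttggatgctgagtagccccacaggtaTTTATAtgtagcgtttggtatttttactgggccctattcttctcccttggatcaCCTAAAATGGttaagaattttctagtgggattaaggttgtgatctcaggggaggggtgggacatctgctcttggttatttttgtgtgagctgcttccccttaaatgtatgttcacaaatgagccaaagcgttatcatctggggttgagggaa
Synpo2l: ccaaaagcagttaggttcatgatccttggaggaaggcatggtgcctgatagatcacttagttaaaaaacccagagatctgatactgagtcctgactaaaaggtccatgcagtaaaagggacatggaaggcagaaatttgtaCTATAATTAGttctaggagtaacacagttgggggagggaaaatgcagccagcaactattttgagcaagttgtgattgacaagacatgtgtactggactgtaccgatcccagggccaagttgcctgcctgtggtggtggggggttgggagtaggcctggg
Pdlim3: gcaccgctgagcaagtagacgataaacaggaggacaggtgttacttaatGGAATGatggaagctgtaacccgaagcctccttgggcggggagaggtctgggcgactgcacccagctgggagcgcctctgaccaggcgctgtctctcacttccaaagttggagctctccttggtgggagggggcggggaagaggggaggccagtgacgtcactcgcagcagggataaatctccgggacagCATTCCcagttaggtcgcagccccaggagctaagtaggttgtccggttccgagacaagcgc
Mybpc3: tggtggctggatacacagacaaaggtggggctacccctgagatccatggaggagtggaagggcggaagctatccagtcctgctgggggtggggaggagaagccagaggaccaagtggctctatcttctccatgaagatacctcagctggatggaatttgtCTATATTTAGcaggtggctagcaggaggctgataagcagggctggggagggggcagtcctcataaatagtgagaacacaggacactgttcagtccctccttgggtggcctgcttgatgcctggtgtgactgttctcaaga
The CArG box was present in 8 of the 43 windows, in 6 genes, 1 box being counted in both of 2 overlapping Ldb3 windows, beside 1.63% of 32851 promoters of the same length. MEF2 sites were in 6 windows (3.19% of all), M-CAT elements in 12 (14.66%) and TATA elements in 7 (13.62%), and in 1 Fhl2 window a MEF2 site and a TATA element overlapped. Genes with a CArG box included Fhl1, which rose, and Fhl2, Myl3, Myom1, Ldb3 and Nebl, which were not called in all injured hearts against sham. The matches are a description of letters in these windows.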

How the data were processed

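RNA-seq of 9 mouse hearts (3 sham, 3 MIRI, 3 GXNI) was analysed as counts deposited by the authors, who dropped reads with adapters, unknown bases or low quality, used HISAT2 to align to mm10 and counted genes with featureCounts of Subread (versions, annotation release and strand setting not given in the sources used here). Of 54532 gene IDs 54409 carried a symbol. Counts were tested with edgeR 4.0.16 in R 4.3.3 (TMM normalization, filterByExpr, quasi-likelihood F test over all genes, Benjamini-Hochberg adjustment), and scripts were tested on simulated data. CPM use TMM library sizes, and exon lengths are unions from GENCODE M21. Calls needed a fold of 1.5 and an unadjusted p of 0.01. DESeq2 1.42.0, other normalizations, no filter, a replicate block and left-out libraries were alternatives. Members and lists were chosen with earlier results of these data known. No pair of libraries agreed within sampling noise (lowest chi-square per degree of freedom 13.4). Values were given per library for called members and for the most abundant and most changed gene of each role. Markers of 10 cell types, among them skeletal muscle (23.07 to 49.49 CPM summed), endothelial (1460 to 2149), fibroblast (1371 to 3441), smooth muscle (507.6 to 906.4), macrophage (496.8 to 906.1), atrial (672.9 to 1725), epicardial (9.35 to 94.8) and adipocyte (165.5 to 564.4) lists, were summed, and their part in the results was not tested. Depth was 17119454 to 22811295 counts, and 3 counts equalled 0.13 to 0.18 CPM. The numbers of libraries limit precision, and 3 against 3 values allow no exact p under 0.1.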

Additional observations from a re-analysis of the deposited data

Results flagged for a closer look

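Among the 6 injured hearts, 5 of the 40 members had 1 library far from the rest by Dixon's criterion, which chance alone meets in about 1 of 20 groups. In GXNI 1, Fhl1 was at 177.8 CPM, Synpo2l at 129.1 CPM and Pdlim5 at 742.2 CPM, each far below the other 5 hearts and near sham levels, and troponin C (Tnnc1) was at 939.2 CPM, below all other hearts, sham included. In MIRI 2, Smyd1 was at 684.1 CPM, above all other hearts. The cause was not tested.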

How the results depend on the processing

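No called member changed sign under any alternative, but how many were called depended on the threshold and on single libraries. By edgeR at an adjusted p of 0.05 only 1 member stood higher and 0 lower for MIRI against sham, with 0 either way for GXNI against sham and for all injured hearts, and 0 of the other sarcomere genes in all comparisons. That threshold together with a fold of 1.5, in settings chosen after seeing the data, gave 5 members lower for MIRI against sham by DESeq2, and in edgeR without the filter on low counts 0 higher and 1 lower for GXNI against sham and 1 lower for all injured hearts. At the unadjusted threshold, members called lower numbered 6 in MIRI against sham (2.88% of all genes), 7 in GXNI against sham (1.52%) and 7 in all injured hearts (2.33%) without the filter, and with DESeq2 6 for MIRI (2.72%) and 7 for GXNI against sham (1.46%), the latter with 5 higher (3.56%). Other sarcomere genes in GXNI against sham were 12 higher and 5 lower without the filter (3.57% and 1.52% of all genes) and with DESeq2 (3.56% and 1.46%), and 5 higher with library totals in place of TMM (3.74%). One fit of all 9 libraries gave 8 higher and 1 lower of them for MIRI against sham (3.52% and 1.74% of all genes), then 5 and 1 for GXNI against sham (1.97% and 0.934%).

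Deviations of same-numbered libraries from their group means correlated from -0.49 (MIRI 1 with GXNI 1) to 0.77 (MIRI 3 with GXNI 3). With 3 libraries a group these values cannot settle whether the replicate numbers mark a pairing, and the labels name none. With a replicate block, other sarcomere genes called lower were 1 for MIRI and 1 for GXNI against sham. Members were 6 higher and 3 lower for MIRI (4.77% and 2.51% of all genes) and 2 higher and 4 lower for GXNI (2.33% and 1.57%). GXNI against MIRI still had 0 (0.0135% and 0.00677%).

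Leaving out each library in turn gave 5 to 6 members higher and 1 to 14 lower for MIRI against sham, 0 and 0 for GXNI against MIRI, 1 to 6 higher and 3 to 9 lower in GXNI against sham, and 3 to 6 higher and 3 to 8 lower in all injured hearts. Of all genes, 2.25% to 16.9% were then higher and 1.15% to 13.3% lower for MIRI against sham. The shares were at most 0.0529% and 0.0591% for GXNI against MIRI. They were 0.551% to 10.7% and 0.594% to 7.08% in GXNI against sham, and 1.03% to 9.25% and 1.0% to 6.29% in all injured hearts. Members' median log2 fold changes ran from -0.35 to -0.11, -0.15 to 0.15, -0.31 to -0.13 and -0.28 to -0.17 in that order. Other sarcomere genes ran from 10 to 18 higher and 1 to 10 lower, 0 and 0, 0 to 17 and 1 to 6, and 0 to 17 and 1 to 7. The highest counts of lower calls came without MIRI 2 (14 members, 10 other genes, 13.3% of all genes). In GXNI against sham they came without GXNI 1 (9 members, 7.08% of all genes). MIRI 2 and GXNI 3 were left out together for their likeness to the other group. MIRI 1, MIRI 3 and GXNI 2, also most like a library of the other group, were kept. This choice by itself widens the difference between GXNI and MIRI. GXNI against MIRI then had 2 members and 3 other genes higher (1.52% of all genes) and 3 other genes lower (3.47%). The median of the members was 0.22. All injured hearts then had 8 members and 7 other genes lower (7.02%).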
